A study of Mus musculus with 6 samples.

Results

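The 10 genes described here are the glucose transporter Slc2a1, the lactate transporter Slc16a3 and 8 further targets of the hypoxia-inducible factors, Vegfa, Adm, Egln3, Car9, Bnip3, Ndrg1, Ankrd37 and Ero1a. They were chosen by symbol among the 28649 gene names in the count matrices. All 10 were found, Ero1a under its older symbol Ero1l, which RefSeq lists as a synonym and which is used below. Droplet single-cell RNA counts came from 6 mouse libraries of the 4T1 mammary carcinoma model. The 3 libraries labelled shPgk1 came from cells given a lentiviral short hairpin RNA against Pgk1, which encodes the glycolytic enzyme phosphoglycerate kinase. The 3 shNC libraries came from cells given a non-targeting hairpin, and both groups were selected with puromycin. The labels do not say whether the replicates were separate transductions or animals, so the p-values below measure the spread between these 6 libraries, which may be technical. The labels name the cell line and no host tissue, yet the libraries also held macrophages, T cells, neutrophils, fibroblasts and endothelial cells. After filtering, 6567, 7274 and 7258 cells were kept in the libraries labelled shPgk1, against 7545, 6104 and 6686 in shNC. Before filtering a library held 78778073 to 128933960 unique molecular identifiers (UMIs, 1 per captured RNA molecule).

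Pgk1 itself had 324, 324 and 349 CPM (UMIs scaled to a common total per sum of cells) over all kept cells of the libraries labelled shPgk1, against 351, 341 and 313 CPM in shNC. Its log2 fold was 0.06 ± 0.07 (SE; edgeR adjusted p = 0.593). In epithelial cells it had 244, 298 and 324 CPM in libraries labelled shPgk1, against 286, 243 and 217 CPM in shNC (log2 fold 0.37 ± 0.15, edgeR adjusted p = 0.117). In a shallow unnamed cluster of 4558 cells, counted among all cells only, Pgk1 had 89.8, 114 and 103 CPM in the libraries labelled shPgk1. It had 124, 118 and 115 CPM there in shNC, apart by a small margin and not tested. Over all cells and in cells named epithelial, the targeted gene was thus not lower in the libraries that carry its hairpin's label. Every direction below is between labels.

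Hypoxia-inducible factors are pairs of an alpha and a beta subunit. The alpha subunit is marked for destruction by prolyl hydroxylases when oxygen is present, and when it is stable the pair binds a short core motif near its target genes. In tumours this program raises glucose uptake, lactate export, acid handling and vessel-forming signals. Slc2a1 carries glucose into cells and Slc16a3 carries lactate out. Vegfa is the main growth factor for blood vessels and Adm, adrenomedullin, is a secreted peptide that widens vessels. Egln3 is one of the oxygen-sensing hydroxylases, Car9 is a membrane carbonic anhydrase that works outside the cell, and Ero1l is an endoplasmic reticulum oxidase that helps form disulfide bonds. Bnip3 is a mitochondrial protein that promotes the removal of mitochondria, and Ndrg1 and Ankrd37 are cytoplasmic or nuclear proteins widely used as hypoxia markers.

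This core motif was looked for as ACGTG and, in its other form with a different first letter, as GCGTG, on both strands. RefSeq promoter windows were used (GRCm38.p6, 250 bases before to 50 after 1 start per window). For Slc16a3, Ankrd37 and a second Vegfa window that start lies inside the annotated gene. Of the 10 genes 9 had a window; Ndrg1 had none. Taking 1 window per gene, ACGTG was present in 7 of 9 (77.8%), against 19.6% of 32851 promoters, and either form in 8 of 9 (88.9%), against 43.8%. The 32851 count every window, also where a gene has more than 1. With 1 window per gene, ACGTG was present in 9 of 23 (39.1%) other targets of these factors, and either form in 17 (73.9%). The 150 bases just before the start used are printed for 5 of the genes whose levels over all cells differed between the labels. They are also printed for Bnip3 and Ero1a, whose transcripts followed the other members most closely from cell to cell in the epithelial lineage. Capitals mark either form, read on this strand or on the opposite one, and each sequence runs 5′ to 3′ on the strand of the gene. The printed stretches are chr4:119108595-119108744 (plus strand) for Slc2a1, chr11:120948917-120949066 (plus strand) for Slc16a3, chr17:46032378-46032527 (minus strand) for Vegfa and chr7:110627507-110627656 (plus strand) for Adm. The others are chr4:43506876-43507025 (plus strand) for Car9, chr7:138909507-138909656 (minus strand) for Bnip3 and chr14:45318573-45318722 (minus strand) for Ero1a.
Slc2a1: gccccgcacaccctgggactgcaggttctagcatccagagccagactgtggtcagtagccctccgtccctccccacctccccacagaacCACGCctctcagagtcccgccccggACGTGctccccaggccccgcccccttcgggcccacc
Slc16a3: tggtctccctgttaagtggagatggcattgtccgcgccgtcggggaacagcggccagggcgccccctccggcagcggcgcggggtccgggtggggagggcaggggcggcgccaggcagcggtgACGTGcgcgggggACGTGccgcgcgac
Vegfa: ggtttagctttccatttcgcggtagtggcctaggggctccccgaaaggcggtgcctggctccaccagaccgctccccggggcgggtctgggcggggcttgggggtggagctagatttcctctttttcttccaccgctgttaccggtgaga
Adm: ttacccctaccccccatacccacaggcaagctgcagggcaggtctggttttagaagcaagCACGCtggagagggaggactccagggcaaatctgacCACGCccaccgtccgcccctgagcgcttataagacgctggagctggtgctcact
Car9: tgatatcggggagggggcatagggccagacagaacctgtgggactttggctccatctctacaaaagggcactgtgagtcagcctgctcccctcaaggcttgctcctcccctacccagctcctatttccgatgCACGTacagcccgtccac
Bnip3: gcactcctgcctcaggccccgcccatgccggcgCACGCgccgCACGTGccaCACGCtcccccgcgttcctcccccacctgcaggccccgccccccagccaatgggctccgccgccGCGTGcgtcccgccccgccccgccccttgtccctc
Ero1a: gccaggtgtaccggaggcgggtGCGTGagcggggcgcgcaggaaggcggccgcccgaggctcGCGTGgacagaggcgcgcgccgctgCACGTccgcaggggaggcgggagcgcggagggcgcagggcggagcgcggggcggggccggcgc
Slc16a3 holds ACGTG 27 and 14 bases before the start used for it, although its annotated gene begins further upstream, at chr11:120948484. Car9 holds ACGTG on the opposite strand 18 bases before its start, and Adm holds GCGTG on the opposite strand 90 and 54 bases before. In Bnip3 the matches on the 2 strands overlap as CACGTG. The first Vegfa window has neither form, and the second, at another annotated start, has both. That second window, chr17:46025114-46025413 (minus strand), lies inside the annotated gene, which spans chr17:46016993-46032377. A match is a description of letters, not a measured binding site, and the absence of a match says only that these letters are not in the window.

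Cells were split into lineages by clustering without the genes listed here and naming clusters from markers. Epcam, Krt8 and related keratin genes marked 2 epithelial clusters with 7 and 8 of 8 markers raised. Csf1r, Cd68 and related genes marked 3 monocyte or macrophage clusters with 8 of 9 markers raised in each. The T or NK cluster had 8 of 9 markers raised, and the neutrophil, fibroblast and endothelial clusters had 8 of 8. Neutrophils were shallow, with a median of 1722 UMIs per cell and 60 to 428 cells per library. Endothelial cells numbered 42 to 102 per library.

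Each gene had its own order of these 6 lineages (the plot of levels by lineage). The levels below are means over the 6 libraries with their range, given as a description of clusters and with no test. Slc2a1 stood highest in neutrophils at 279 CPM (232 to 346), then in monocytes or macrophages at 154 CPM (127 to 187). It was lowest in T or NK cells at 66.3 CPM (51.3 to 86.8), a range that overlapped the 81.8 CPM of epithelial cells (68.2 to 106). Slc16a3 was the most uneven transporter, with 374 CPM in neutrophils (303 to 430), 102 CPM in monocytes or macrophages (92.7 to 118) and 8.58 CPM in epithelial cells (4.49 to 12.4). Its neutrophil mean was 43.6 times its epithelial mean, and no epithelial library reached the lowest library of any other lineage. Because neutrophils were shallow and CPM is a share of UMIs, their place above macrophages need not hold per cell. A Slc2a1 UMI was seen in 35.2% to 48.9% of neutrophils per library, against 62.9% to 75.2% of monocytes or macrophages. For Slc16a3 these were 44.3% to 53.3% of neutrophils, against 55.0% to 63.0% of monocytes or macrophages.

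The 2 secreted signals came mostly from cells other than epithelial ones. Vegfa stood at 203 CPM in fibroblasts (171 to 275) and 157 CPM in monocytes or macrophages (121 to 194), ranges that overlapped. It reached only 30.9 CPM in epithelial cells (23.0 to 43.2). Adm stood at 92.4 CPM in endothelial cells (42.2 to 161) and 65.3 CPM in fibroblasts (33.7 to 83.7), again overlapping. Its epithelial level was 1.97 CPM (0.783 to 3.86), from 58 to 133 UMIs per library.

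Car9 was the only one of the 10 genes whose highest level among the 6 lineages was the epithelial one. It had 32.3 CPM there (28.7 to 34.6), and the next lineage, neutrophils, had 7.10 CPM (1.08 to 15.7), with no overlap. A mast or basophil cluster of 98 cells had a higher mean, 43.9 CPM, with a wide range of 14.98 to 90.8 CPM. Among the 6 lineages Egln3, Bnip3 and Ero1l all stood highest in neutrophils without overlap with the next, at 112, 152 and 220 CPM. CPM is a share of UMIs, and neutrophils were shallow, so this order need not hold per cell. A Bnip3 UMI was seen in 21.3% to 27.2% of neutrophils per library, against 41.6% to 54.5% of monocytes or macrophages. For Ero1l the mast or basophil cluster again had a higher mean, 305 CPM (172 to 449), overlapping neutrophils. Egln3 differed little among T or NK cells, monocytes or macrophages, endothelial and epithelial cells, whose means lay between 21.9 and 28.1 CPM with overlapping ranges. Ndrg1 was the most even, from 112 CPM in T or NK cells (83.2 to 127) to 238 CPM in monocytes or macrophages (195 to 270). Ankrd37 stood highest in endothelial cells at 37.2 CPM (29.9 to 44.7), overlapping neutrophils at 33.3 CPM, and between 13.3 and 15.4 CPM in the other 4 lineages.

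**Figure D1:**
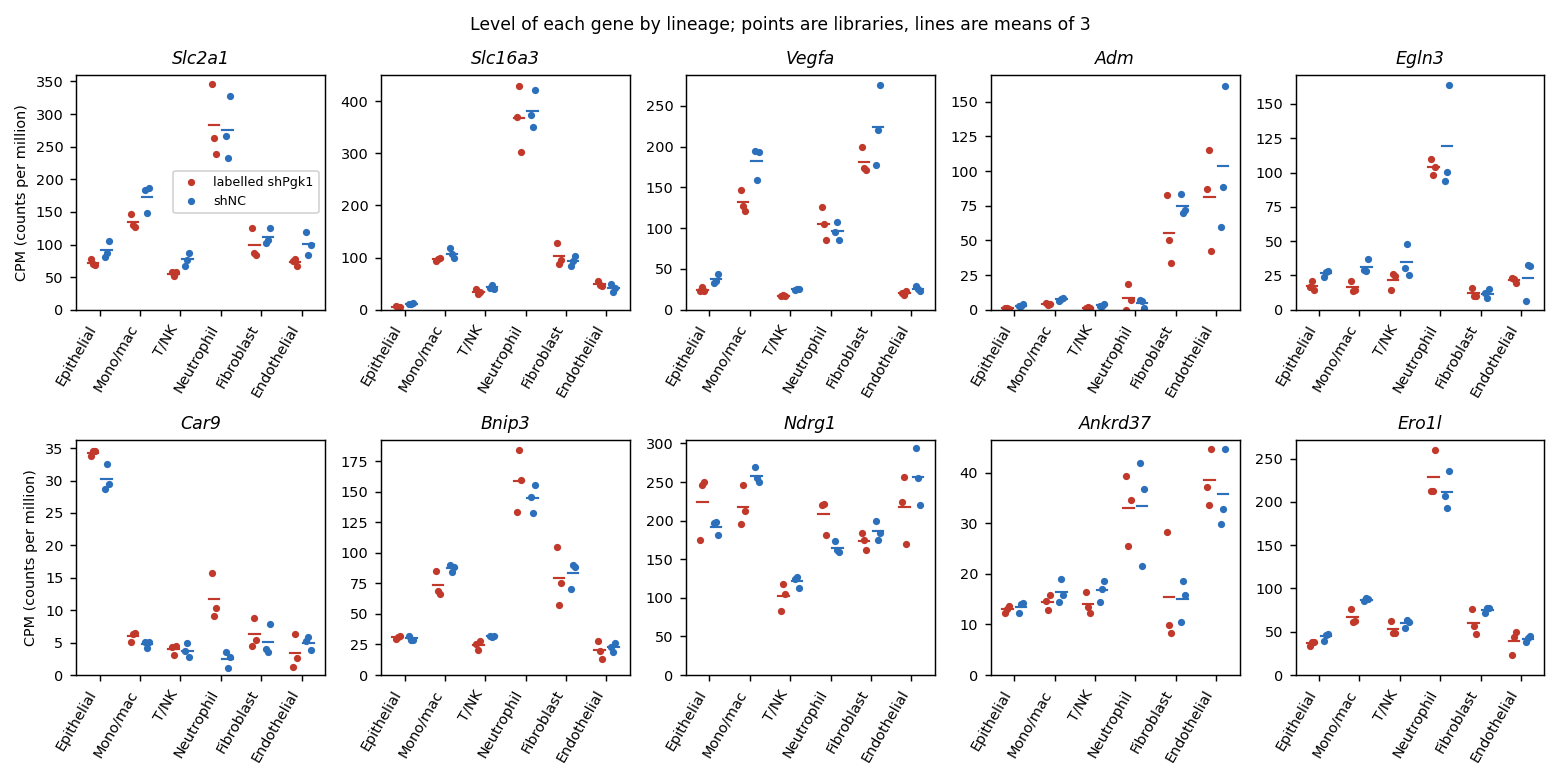
Level of each gene in CPM (vertical axis, linear, its own scale per gene) in the 6 lineages, with 1 point per library, the libraries labelled shPgk1 in red to the left of shNC in blue, and lines at the means of 3. Of the 6 lineages neutrophils stand highest for Slc2a1, Slc16a3, Egln3, Bnip3 and Ero1l, and Car9 is highest in epithelial cells at 28.7 to 34.6 CPM.

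The lineage that supplied a gene's UMIs differed between the groups, and so did the makeup of the libraries. Epithelial cells were 44.6%, 49.0% and 47.0% of kept cells in the libraries labelled shPgk1, against 25.9%, 31.4% and 39.2% in shNC. They gave 84.0%, 87.1% and 87.1% of Car9 UMIs in the libraries labelled shPgk1, against 69.5%, 74.5% and 76.5% in shNC. For Slc2a1 the epithelial part was 38.1%, 52.7% and 48.6% in the libraries labelled shPgk1, against 21.7%, 25.9% and 29.97% in shNC. Epithelial cells gave the smallest parts for Slc16a3, a mean of 8.18% in libraries labelled shPgk1 and 6.41% in shNC, and for Adm, 11.6% and 8.07%. A value summed over all cells mixes the level within cells with the share of each cell type, which cannot be told apart in it.

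**Figure D2:**
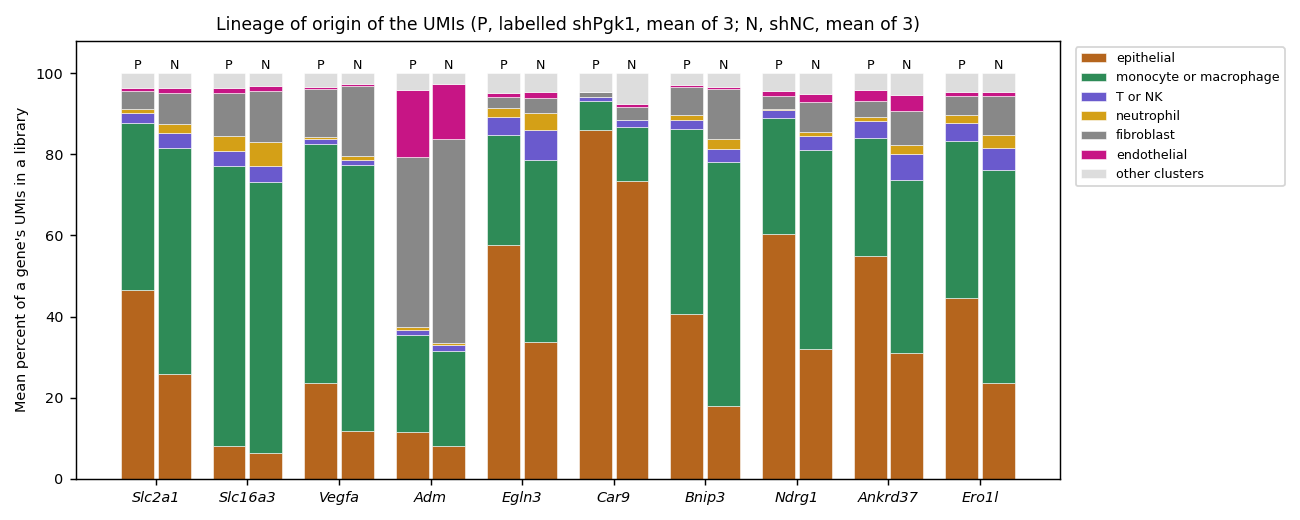
Mean percent of each gene's UMIs in a library (vertical axis) that came from each lineage, with the libraries labelled shPgk1 (P, mean of 3) left of shNC (N, mean of 3). The epithelial part is larger under the shPgk1 label for each of the 10 genes, as for Bnip3 with 40.7% in libraries labelled shPgk1 and 18.0% in shNC.

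Over all cells, 7 of the 10 genes passed the test between labels, where 16.7% of all 19518 genes tested did. Slc2a1, Slc16a3, Vegfa, Adm, Egln3 and Ero1l fell and Car9 rose. Slc16a3 had 44.4, 33.3 and 37.2 CPM in the libraries labelled shPgk1, against 69.4, 65.4 and 60.8 CPM in shNC (log2 fold -0.70 ± 0.11, edgeR adjusted p = 0.0188). Vegfa had 72.2, 56.1 and 55.8 CPM in the libraries labelled shPgk1, against 113, 102 and 123 CPM in shNC (log2 fold -0.81 ± 0.13, edgeR adjusted p = 0.018). Both genes had their groups well apart, with every library labelled shPgk1 the lower. Adm, at lower levels, had 5.68, 5.95 and 3.41 CPM in the libraries labelled shPgk1, against 10.6, 11.98 and 16.3 CPM in shNC (log2 fold -1.31 ± 0.25, edgeR adjusted p = 0.0238). Car9 went the other way, with 19.97, 24.9 and 23.5 CPM in the libraries labelled shPgk1, against 14.0, 14.7 and 15.1 CPM in shNC. Here every library labelled shPgk1 was the higher. The log2 folds of Slc2a1, Egln3 and Ero1l were -0.42 ± 0.11, -0.61 ± 0.12 and -0.42 ± 0.08 (edgeR adjusted p = 0.0436, 0.0233 and 0.0216). The share of all genes that fell was 7.2% and the share that rose 9.45%. In CPM, 7 of the 10 genes had every library labelled shPgk1 below every shNC library, where 25.7% of all genes did, and 1 had it above, where 15.9% did. The median log2 fold was -0.42 over the 10 genes and -0.05 over all genes. Bnip3 had a log2 fold of -0.34 ± 0.10 (edgeR adjusted p = 0.0537), Ankrd37 -0.11 ± 0.10 and Ndrg1 0.07 ± 0.12. With the library totals in place of the trimmed mean of M values (TMM) the split of all genes called turned from 1844 higher and 1406 lower to 1090 higher and 1940 lower, and the 7 genes kept their directions. Without library 2 or library 3 labelled shPgk1, or without shNC library 2, 0 of the 10 genes passed in edgeR although 8 had an unadjusted p below 0.05, as many as with all 6 libraries, where 36.8% of all genes had one. Of all genes 9, 3 and 3 passed without these libraries, and the share with an unadjusted p below 0.05 in those fits is not given here.

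Within the cells named epithelial, 4 of the 10 genes passed, where 8.4% of 16304 genes did. Slc16a3, Vegfa and Adm fell, as did 5.12% of all genes, and Car9 rose, as did 3.28%. Slc16a3 had 6.98, 4.49 and 5.16 CPM in the libraries labelled shPgk1, against 11.7, 10.7 and 12.4 CPM in shNC. Every library labelled shPgk1 lay below every shNC library, and the log2 fold was -0.93 ± 0.16 (edgeR adjusted p = 0.0216). Adm had 1.14, 1.06 and 0.783 CPM in the libraries labelled shPgk1, against 2.56, 2.41 and 3.86 CPM in shNC. Its groups were apart at low levels, with a log2 fold of -1.43 ± 0.24 (edgeR adjusted p = 0.0225). Vegfa had 23.1, 27.3 and 23.0 CPM in the libraries labelled shPgk1, against 33.1, 35.5 and 43.2 CPM in shNC. These groups too were apart, and the log2 fold was -0.46 ± 0.12 (edgeR adjusted p = 0.0481).

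Egln3 stood just outside the threshold. It had 16.9, 20.9 and 14.5 CPM in the libraries labelled shPgk1, against 24.0, 27.3 and 28.1 CPM in shNC, with a log2 fold of -0.45 ± 0.13 (edgeR adjusted p = 0.054). Slc2a1 had 77.6, 70.7 and 68.2 CPM in the libraries labelled shPgk1, against 81.0, 87.5 and 106 CPM in shNC. Both genes had their groups apart, but the Slc2a1 log2 fold of -0.20 ± 0.12 did not pass (edgeR adjusted p = 0.254). In all, 6 of the 10 genes had every library labelled shPgk1 below every shNC library in CPM, where 30.2% of all genes did, and 1 had it above, where 7.97% did.

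Car9, the epithelial gene of the set, had 33.7, 34.6 and 34.5 CPM in the libraries labelled shPgk1, against 28.7, 32.5 and 29.5 CPM in shNC. The groups were apart by a small margin, and the log2 fold was 0.33 ± 0.09 (edgeR adjusted p = 0.0485). Over all cells the Car9 log2 fold was 0.72 ± 0.10 (edgeR adjusted p = 0.0176). With library totals the epithelial Car9 fold was 0.18 ± 0.09 (edgeR adjusted p = 0.184) and no longer passed. In the epithelial lineage TMM set the median of all genes 0.148 higher on the log2 scale than library totals did, and the genes called turned from 534 higher and 835 lower to 134 higher and 2079 lower.

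The 4 remaining genes did not pass in epithelial cells. Ero1l had 33.6, 38.4 and 38.0 CPM in the libraries labelled shPgk1, against 39.8, 46.8 and 47.6 CPM in shNC (log2 fold -0.14 ± 0.11, edgeR adjusted p = 0.39), and its groups were apart by CPM. Ndrg1 had 175, 246 and 251 CPM in the libraries labelled shPgk1, against 197, 198 and 181 CPM in shNC. Library 1 labelled shPgk1 was below all shNC libraries for Ndrg1 and the other 2 were above them, and the log2 fold of 0.38 ± 0.15 did not pass (edgeR adjusted p = 0.109). Bnip3 lay between 28.7 and 32.0 CPM and Ankrd37 between 12.2 and 14.3 CPM, with the groups overlapping. The median log2 fold was -0.17 over the 10 genes and -0.03 over all genes.

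Markers of other lineages moved in the same epithelial sums. The 8 neutrophil markers summed to 25.5, 117 and 77.7 CPM in the libraries labelled shPgk1, against 292, 364 and 259 CPM in shNC, which is 0.0321% to 0.261% of their level in neutrophils. Slc16a3 stood at 1.89%, 1.05% and 1.70% of its neutrophil level in the libraries labelled shPgk1, against 3.15%, 3.06% and 2.95% in shNC. The 8 fibroblast markers summed to 200, 275 and 285 CPM in the libraries labelled shPgk1, against 454, 439 and 704 CPM in shNC. The 9 monocyte or macrophage markers summed to 599, 300 and 359 CPM in the libraries labelled shPgk1, against 561, 582 and 733 CPM in shNC. None of these markers was at 0 in every library. The part that such RNA from other cells has in the epithelial values of Slc16a3, Adm and Vegfa was not tested.

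The 4 calls rested on single libraries and on the way cells were assigned. Without library 2 or 3 labelled shPgk1, or without shNC library 2 or 3, 0 of the 10 genes passed in edgeR. In each case 5 had an unadjusted p below 0.05, and 67, 6, 19 and 180 of all genes passed in turn. With all 6 libraries 6 of the 10 had such a p, where 34.7% of all genes did. That share in the fits without a library is not given here. The epithelial log2 fold of Slc16a3 stayed between -1.12 and -0.80 over the 6 single omissions and that of Adm between -1.55 and -1.17. With cells assigned 1 barcode at a time by 8 gating genes, 0 passed in edgeR and 35 of all genes did. At an unadjusted p below 0.05 were 4 members, and the Car9 fold was 0.11. The share of all genes with such a p under this gate is not given here. The 34.7% belongs to the main fit on other cells and is not its background.

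**Figure D3:**
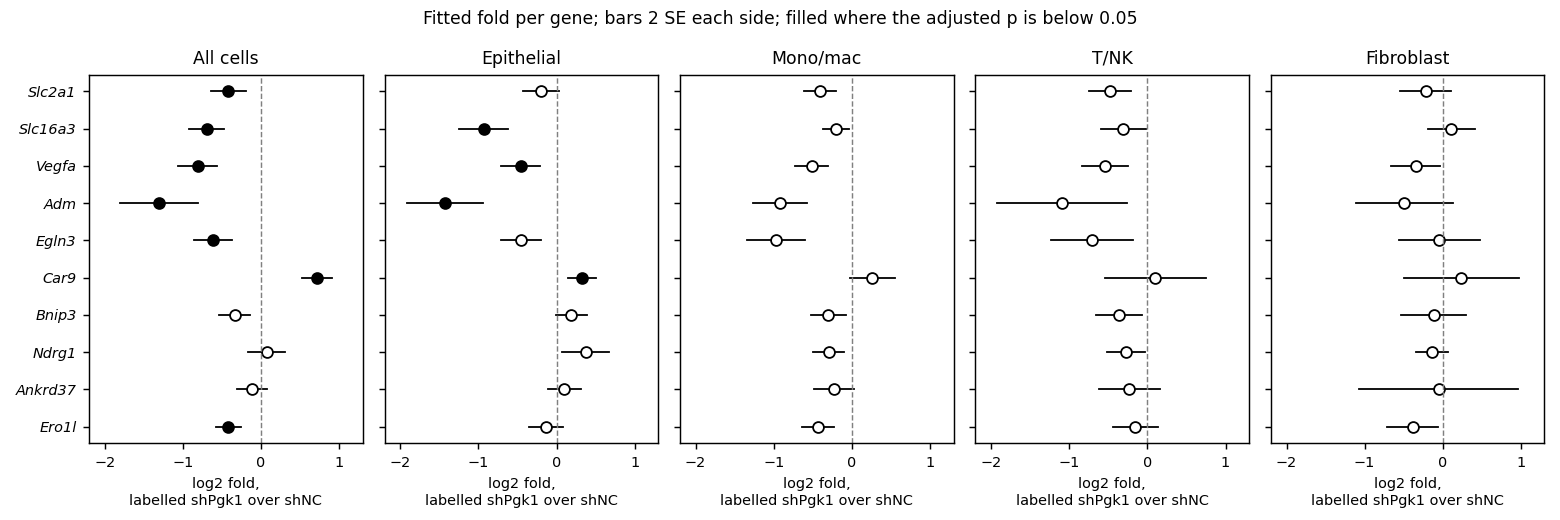
Log2 fold of each gene, libraries labelled shPgk1 over shNC (horizontal axis), in all cells and in 4 lineages, with bars of 2 SE each side and filled points where the edgeR adjusted p is below 0.05. Over all cells 7 points are filled and in epithelial cells 4, while monocytes or macrophages, T or NK cells and fibroblasts have 0.

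The 2 epithelial clusters took different shares of the lineage. The first, cluster 0, was led by Krt8, Wfdc2 and Krt14 and held 73.1%, 73.0% and 77.7% of epithelial cells in the libraries labelled shPgk1, against 62.7%, 50.6% and 43.6% in shNC. The second, cluster 2, was led by Tiam2, Ccbe1 and Spata7 and held the rest. Slc16a3 fell within each of them, by a log2 fold of -1.02 ± 0.15 in cluster 0 (edgeR adjusted p = 0.0237) and -1.004 ± 0.20 in cluster 2 (edgeR adjusted p = 0.0499), where 0.852% and 0.447% of all genes passed. Within cluster 0, Adm also fell (log2 fold -1.50 ± 0.28, edgeR adjusted p = 0.0452), and its log2 fold in cluster 2 was -1.27 ± 0.32 (edgeR adjusted p = 0.127).

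Egln3 was apart in both clusters and passed in the second. In cluster 2 it had 20.8, 22.7 and 17.03 CPM in the libraries labelled shPgk1, against 33.6, 35.5 and 35.3 CPM in shNC (log2 fold -0.77 ± 0.14, edgeR adjusted p = 0.0345). In cluster 0 the log2 fold was -0.37 ± 0.14 (edgeR adjusted p = 0.203). Whether the 2 clusters differ in this change was not tested. Vegfa had log2 folds of -0.65 ± 0.15 in cluster 0 and -0.27 ± 0.13 in cluster 2, neither past the threshold. Bnip3, at 0.19 in the whole lineage, had -0.10 ± 0.08 in cluster 0 and -0.21 ± 0.13 in cluster 2. Its groups overlapped in cluster 0 and were apart and lower in cluster 2. Slc2a1 was apart and lower in cluster 0 (-0.39 ± 0.13) and overlapped in cluster 2 (-0.17 ± 0.15). Neither gene passed in either cluster.

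The Car9 difference was not seen within clusters. Car9 had 35.6, 36.3 and 36.3 CPM in cluster 0 of the libraries labelled shPgk1, against 29.4, 33.7 and 37.4 CPM in shNC. In cluster 2 it had 25.2, 25.9 and 21.1 CPM in the libraries labelled shPgk1, against 26.6, 30.7 and 21.6 CPM in shNC. The groups overlapped in both, with log2 folds of 0.07 ± 0.11 and -0.10 ± 0.14 (edgeR adjusted p = 0.741 and 0.846). Cluster 0, with the higher mean Car9 level, held a larger part of epithelial cells in every library labelled shPgk1 than in any of shNC. What part these shares have in the epithelial Car9 difference was not tested.

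**Figure D4:**
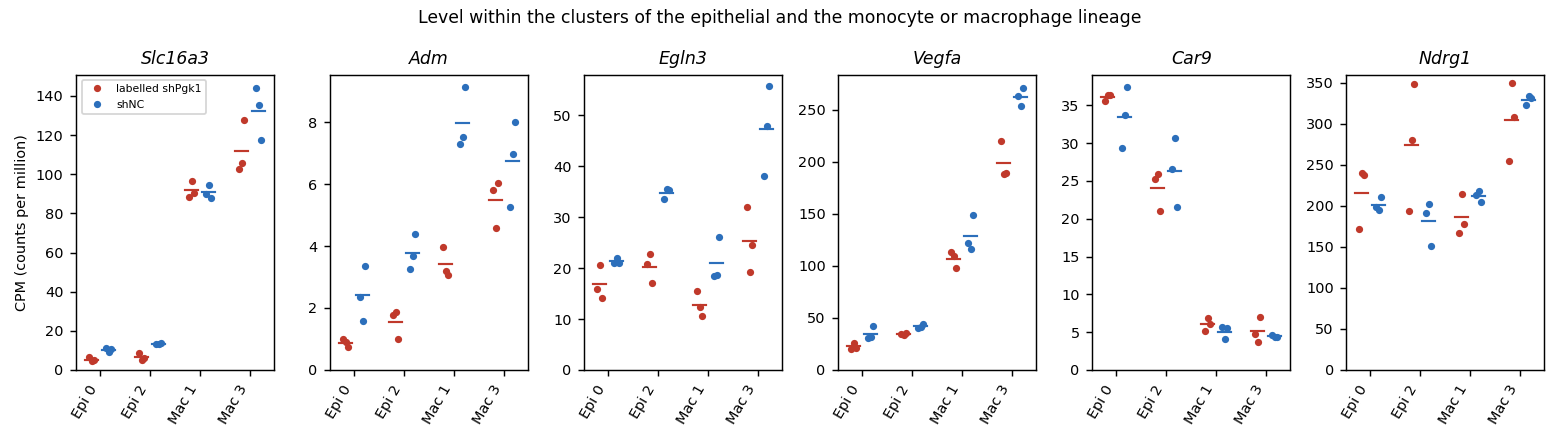
Level in CPM (vertical axis, linear, its own scale per gene) of 6 genes in epithelial clusters 0 and 2 and monocyte or macrophage clusters 1 and 3, 1 point per library, labelled shPgk1 in red to the left of shNC in blue, lines at means of 3. Slc16a3 is apart in both epithelial clusters and overlaps in both macrophage clusters, Egln3 is apart in all 4, and Car9 overlaps in all 4.

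In monocytes or macrophages 0 of the 10 genes passed in edgeR, where 0.712% of 15588 genes did, while 8 of 10 had an unadjusted p below 0.05, all 8 lower, where 18.2% of all genes had such a p in either direction. DESeq2 called 5, Slc2a1, Vegfa, Adm, Egln3 and Ero1l, all lower, where it called 3.93% of all genes in either direction. Egln3 had 20.8, 13.9 and 14.4 CPM in the libraries labelled shPgk1, against 28.6, 27.9 and 36.9 CPM in shNC, a log2 fold of -0.97 ± 0.19 (edgeR adjusted p = 0.0677). Adm had 4.60, 3.62 and 3.94 CPM in the libraries labelled shPgk1, against 6.12, 7.54 and 8.73 CPM in shNC, a log2 fold of -0.92 ± 0.17 (edgeR adjusted p = 0.0507). Vegfa had 147, 127 and 121 CPM in the libraries labelled shPgk1, against 194, 160 and 193 CPM in shNC, a log2 fold of -0.52 ± 0.11 (edgeR adjusted p = 0.0647). All 3 genes had their groups apart.

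Slc2a1, which imports glucose, had 147, 129 and 127 CPM in macrophages of the libraries labelled shPgk1, against 183, 149 and 187 CPM in shNC, and was also apart (log2 fold -0.41 ± 0.10, edgeR adjusted p = 0.1). Ero1l had 76.1, 61.6 and 62.3 CPM in the libraries labelled shPgk1, against 85.3, 88.4 and 87.4 CPM in shNC (log2 fold -0.43 ± 0.10, edgeR adjusted p = 0.085). Ndrg1 had 195, 246 and 212 CPM in the libraries labelled shPgk1, against 270, 255 and 250 CPM in shNC (log2 fold -0.29 ± 0.10, edgeR adjusted p = 0.172). In all, 6 of 10 genes had every library labelled shPgk1 below every shNC library, where 9.39% of all genes did, and 0 had it above, where 16.1% did. Slc16a3, with 92.7, 98.1 and 99.998 CPM in the libraries labelled shPgk1, against 118, 107 and 98.7 CPM in shNC, overlapped (log2 fold -0.20 ± 0.08, edgeR adjusted p = 0.228). Car9 stood between 4.21 and 6.52 CPM, Bnip3 between 66.1 and 89.7 CPM and Ankrd37 between 12.9 and 18.9 CPM, all with the groups overlapping.

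The makeup of this lineage moved with the labels too. Cluster 3, led by Ly6i, Slc7a2, Ccl5 and Arg1, held 36.5%, 26.3% and 32.2% of monocytes or macrophages in the libraries labelled shPgk1, against 56.8%, 40.4% and 40.5% in shNC. Cluster 1, led by Acp5, Ccl12 and C1qc, held most of the others. Mean Vegfa was 231 CPM over the 6 libraries in cluster 3 and 118 CPM in cluster 1. Within these clusters the Vegfa groups were apart, with log2 folds of -0.47 ± 0.10 in cluster 3 and -0.38 ± 0.11 in cluster 1 (edgeR adjusted p = 0.0651 and 0.154). Within cluster 1, Adm fell with 3.98, 3.21 and 3.08 CPM in the libraries labelled shPgk1, against 7.28, 7.51 and 9.12 CPM in shNC (log2 fold -1.33 ± 0.17, edgeR adjusted p = 0.0127), where 0.961% of all genes passed. In cluster 3 the Adm groups overlapped (log2 fold -0.34 ± 0.21, edgeR adjusted p = 0.522). Egln3 was apart in each, with log2 folds of -0.83 ± 0.20 in cluster 1 and -0.94 ± 0.20 in cluster 3, neither past the threshold (edgeR adjusted p = 0.125 and 0.0924).

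Leaving out library 1 labelled shPgk1 gave 6 calls in monocytes or macrophages, all lower, where 2.95% of all genes passed, and leaving out shNC library 1 gave 1, Adm, where 1.03% did. The 8 neutrophil markers in these macrophage sums came to 84.4, 147 and 140 CPM in the libraries labelled shPgk1, against 497, 392.2 and 483 CPM in shNC, and the 8 fibroblast markers to 320, 474 and 448 CPM against 610, 524 and 790 CPM in shNC. Their part in the macrophage values was not tested.

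T or NK cells gave 0 calls of 10 in edgeR, where 0.102% of 11821 genes passed, and 6 genes with an unadjusted p below 0.05, all lower, where 8.92% of all genes had one in either direction. DESeq2 also called 0. Vegfa had 16.5, 18.1 and 17.3 CPM in T or NK cells of the libraries labelled shPgk1, against 24.2, 25.6 and 25.1 CPM in shNC. The Vegfa groups were tight and apart, with a log2 fold of -0.54 ± 0.15 (edgeR adjusted p = 0.232). Slc2a1 had 57.5, 51.3 and 57.8 CPM in the libraries labelled shPgk1, against 67.7, 76.9 and 86.8 CPM in shNC (log2 fold -0.48 ± 0.13, edgeR adjusted p = 0.238). Adm and Bnip3 were also apart and lower, which makes 4 of 10 genes, where 7.11% of all genes were. Of the 10 genes 0 were apart and higher, where 6.38% of all genes were.

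Neutrophils, fibroblasts and endothelial cells gave 0 calls in edgeR and 0 in DESeq2. In neutrophils 8 genes were tested, Adm and Car9 being too low, and 0 had an unadjusted p below 0.05, where 7.44% of all genes did and 0.0181% passed the adjusted threshold. Slc16a3, at its highest there, had 369, 430 and 303 CPM in the libraries labelled shPgk1, against 373, 350 and 421 CPM in shNC. Its groups overlapped, and the interval of 2 SE each side of its log2 fold ran from -0.48 to 0.24. Ndrg1 was apart and higher in neutrophils, with 220, 222 and 182 CPM in the libraries labelled shPgk1, against 173, 161 and 159 CPM in shNC, but did not pass (log2 fold 0.25 ± 0.19, edgeR adjusted p = 0.811). Car9 was also higher there, from only 2, 5 and 6 UMIs in the libraries labelled shPgk1, against 4, 1 and 2 in shNC. Among the 8 members tested, Ndrg1 alone was apart and higher, where 8.95% of the 5540 genes tested were. Car9 was not among those genes. Of the 10 genes 0 were apart and lower, where 5.09% of the genes tested were. Epithelial markers in the neutrophil sums were also higher, with 1100, 1208 and 1674 CPM in the libraries labelled shPgk1, against 804, 543 and 875 CPM in shNC, and their part in the Car9 value was not tested.

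In fibroblasts, where 0.0245% of all genes passed, Ero1l alone had an unadjusted p below 0.05 (log2 fold -0.38 ± 0.16, edgeR adjusted p = 0.572), where 8.36% of all genes had one. All 10 genes overlapped between the groups, where 6.02% of all genes were apart and lower and 8.59% apart and higher. Adm in fibroblasts had 82.7, 49.96 and 33.7 CPM in the libraries labelled shPgk1, against 83.7, 69.9 and 71.7 CPM in shNC (log2 fold -0.49 ± 0.31). In endothelial cells, where 0.0557% of all genes passed and Car9 was too low to test, Slc2a1 alone had an unadjusted p below 0.05, where 6.44% of all genes had one. It had 74.4, 77.9 and 67.7 CPM in endothelial cells of the libraries labelled shPgk1, against 119, 83.9 and 98.7 CPM in shNC (log2 fold -0.49 ± 0.18, edgeR adjusted p = 0.623). Slc2a1 was the 1 gene apart and lower, where 5.28% of all genes were, and 0 were apart and higher, where 7.48% were. Endothelial Adm spread from 42.2 to 161 CPM and its groups overlapped. Intervals of 2 SE each side of the Adm log2 fold were wide, from -1.11 to 0.13 in fibroblasts and from -1.30 to 0.59 in endothelial cells.

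The change between labels differed between epithelial cells and macrophages for 2 of the 10 genes, in a fit with each library as a term, where 2.27% of 16970 genes did. For the lactate transporter Slc16a3 the epithelial change was lower than the macrophage change by a log2 difference of -0.78 ± 0.17 (edgeR adjusted p = 0.0216). For Ndrg1 the epithelial change was higher by 0.62 ± 0.15 (edgeR adjusted p = 0.0313), with a log2 fold of 0.38 in epithelial cells and -0.29 in macrophages. Within the epithelial clusters, whose shares differed between the labels, the Ndrg1 log2 fold was 0.07 ± 0.13 in cluster 0 and 0.63 ± 0.20 in cluster 2 (edgeR adjusted p = 0.822 and 0.212), and the groups overlapped in both. Bnip3 (0.47 ± 0.15), Egln3 (0.48 ± 0.18) and Adm (-0.53 ± 0.22) did not pass (edgeR adjusted p = 0.104, 0.18 and 0.225). For Vegfa the difference was 0.03 ± 0.15, an interval of 2 SE from -0.26 to 0.32. The Slc16a3 call was lost without library 2 or 3 labelled shPgk1 or shNC library 3, and the Ndrg1 call without library 3 labelled shPgk1 or shNC library 2 or 3.

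Within a lineage most of the genes also tended to be high in the same cells. In each library, cells of at least 3000 UMIs were thinned to 3000, and the level of each gene in the 10% of cells highest for the other 9 was divided by its level in the remaining cells. In epithelial cells Ero1l was 3.30 ± 0.68 times higher in such cells (mean ± SD over 6 libraries), Bnip3 2.82 ± 0.94, Ankrd37 2.78 ± 0.91, Ndrg1 2.30 ± 0.36 and Car9 2.28 ± 0.29 times. Slc2a1 and Vegfa stood at 2.15 ± 0.23 and 2.06 ± 0.37 times. These 7 genes were above 1 in all 6 libraries. Slc16a3, at 0.601 to 2.43 times, Adm, at 0 to 2.25 times, and Egln3, at 0.921 to 1.60 times, had ratios on either side of 1 in epithelial cells. For Egln3 this held at that setting, and its ratios were above 1 in all 6 libraries without thinning, at 1.37 to 2.20 times, and with the highest 20% of cells, at 1.19 to 1.47 times.

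In macrophages Egln3 was 3.26 ± 0.65 times higher in cells high for the other genes, Slc16a3 1.75 ± 0.16 and Adm 5.69 ± 3.34 times, each above 1 in all 6 libraries. Car9 had ratios from 0 to 1.35, from 0 to 5 UMIs in the high cells of a library. Whether the ratios differ between macrophages and epithelial cells was not tested. Ero1l, Ankrd37, Bnip3, Slc2a1 and Ndrg1 had mean ratios of 2.97, 2.54, 2.42, 2.31 and 2.01, and Vegfa 1.57. These ratios come from sparse counts in cells of the same library and are given without a test. Behind them lie as few as 0 to 6 UMIs of epithelial Adm and 4 to 13 of epithelial Slc16a3 in the high cells of a library. Correlations between pairs of single genes across cells were weak. Their median r over the 6 epithelial libraries ran from -0.016 (Slc16a3 with Egln3) to 0.131 (Ndrg1 with Ero1l). Over the 6 macrophage libraries it ran from -0.023 (Slc16a3 with Car9) to 0.141 (Slc2a1 with Ndrg1 and Ndrg1 with Ero1l).

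**Figure D5:**
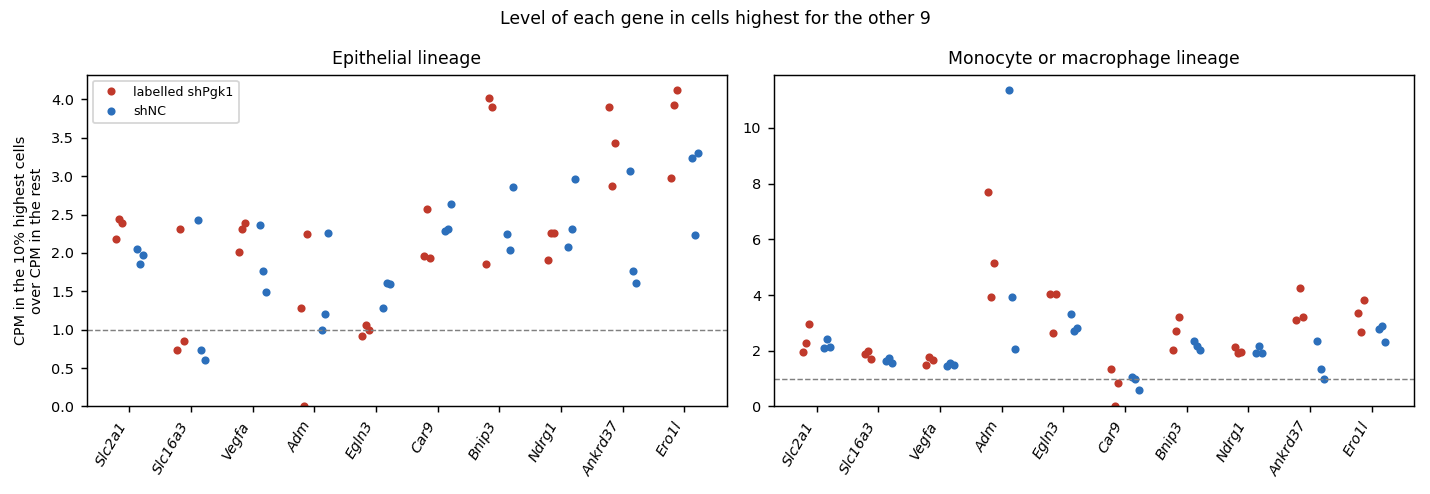
Level of each gene in the 10% of cells highest for the other 9 genes over its level in the remaining cells (vertical axis, ratio, dashed line at 1), 1 point per library, labelled shPgk1 in red to the left of shNC in blue, for epithelial cells and for monocytes or macrophages. With cells thinned and the highest 10% taken, epithelial Slc16a3, Adm and Egln3 scatter around 1, and in macrophages all but Car9 lie above 1, while epithelial Egln3 lies above 1 in all 6 libraries without thinning.

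The macrophages high for these genes were shallower than the others in all 6 libraries, with a median depth of 11450 to 17370 UMIs, against 14120 to 18490 in the other cells. Epithelial cells high for them were shallower in the 3 libraries labelled shPgk1, with 12540 to 15160 against 13750 to 17240 UMIs, and deeper in the 3 shNC libraries, with 10210 to 15320 against 9521 to 13530 UMIs. In macrophages 40.0% to 80.3% of the high cells belonged to cluster 3, against 25.4% to 55.9% of the other cells. Within cluster 1 alone Egln3 was still 3.03 ± 0.93 times higher and Slc2a1 2.11 ± 0.27 times.

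Other genes followed the same cells. By the lowest ratio over the 6 libraries, the genes most like the 10 in epithelial cells were Bnip3l, a relative of Bnip3 (1.92 to 2.31 times higher in the 10% of cells with the most summed UMIs of the 10 genes), P4ha1, a collagen prolyl hydroxylase (1.83 to 2.08), and Higd1a, a small mitochondrial protein (1.73 to 2.24). Aldoa, Espn, Tanc2, Pgk1, Sun2, Vps35, Ovol1, Klf9 and Fam162a followed. Pgk1 itself was 1.57 to 2.12 times higher in these epithelial cells. In macrophages the leading genes were Tnfrsf9, a costimulatory receptor (2.56 to 3.20 times), Nos2, the inducible nitric oxide synthase (2.13 to 3.11), F10, a clotting factor (1.89 to 2.77), and Hmox1, a heme oxygenase (1.84 to 2.18). Adam8, Upp1, Mmp12, Hilpda, Mxi1, Il7r, Rgcc and Sdc1 followed.

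Glycolytic enzymes stood higher in the same cells. Of the 14 enzymes with at least 20 CPM, 14 were higher in all 6 libraries in epithelial cells and 13 in macrophages. Of all genes with at least 20 CPM, 21.5% of 5021 and 15.8% of 4677 were. These shares are not matched for level, and epithelial means of the enzymes ran from 32.3 CPM for Aldoc to 1598 CPM for Gapdh. Aldoa, an aldolase, was 1.71 to 1.84 times higher in epithelial cells and 1.34 to 1.60 times in macrophages. Ldha, which makes lactate from pyruvate, was 1.37 to 1.80 times higher in epithelial cells and 1.43 to 1.58 times in macrophages. Aldoc was the exception in macrophages, at 0.824 to 1.42 times. Of 15 other hypoxia-inducible factor targets, 9 were higher in all 6 epithelial sets and 12 in all 6 macrophage sets.

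Between labels the other genes of the pathway were called in both directions in epithelial cells, and each count below stands beside the 8.4% of all genes called there. Of 28 other hypoxia-inducible factor targets tested, 1 rose, Fam162a, a mitochondrial protein (log2 fold 0.55 ± 0.11, edgeR adjusted p = 0.0313), and 2 fell. These were the collagen crosslinker Lox (-1.02 ± 0.23, edgeR adjusted p = 0.0369) and the MYC antagonist Mxi1 (-0.36 ± 0.08, edgeR adjusted p = 0.0395). Of 8 factor subunits and oxygen-sensing genes, Epas1, which encodes an alpha subunit, fell (-0.91 ± 0.21, edgeR adjusted p = 0.0376), and Hif1a had -0.34 ± 0.10 (edgeR adjusted p = 0.0557). The list medians were -0.21 and -0.03, beside -0.03 over all genes.

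Among other glucose transporters 1 of 8 fell, the sodium-linked Slc5a1 (-2.14 ± 0.41, edgeR adjusted p = 0.031), and Slc2a3 had -0.89 ± 0.26 (edgeR adjusted p = 0.0583). Of 5 other lactate genes, Ldha (0.49 ± 0.13, edgeR adjusted p = 0.0471) and Bsg, the chaperone of lactate transporters (0.47 ± 0.12, edgeR adjusted p = 0.0474), rose, and Emb, a related chaperone, fell (-0.62 ± 0.13, edgeR adjusted p = 0.0313). Of 16 glycolytic enzymes Aldoc, Eno1 and Ldha rose, with log2 folds of 0.58, 0.55 and 0.49, and Eno2 fell with -0.85. DESeq2 called 8 of the 16 higher and 1 lower, where it called 18.2% of all genes, 10 had an unadjusted p below 0.05, where 34.7% of all genes did, and the list median was 0.30. Of 12 receptors and relatives of Vegfa and Adm, Ramp3, part of an adrenomedullin receptor, fell (-0.80 ± 0.19, edgeR adjusted p = 0.0412). In macrophages 0 genes of these lists passed in edgeR, with the smallest p for Loxl2, a relative of Lox (-1.54 ± 0.27, edgeR adjusted p = 0.0525). An unadjusted p below 0.05 was found there for 8 of 28 other targets, 5 of 8 subunits and sensing genes, 1 of 5 glucose transporters, 0 of 6 lactate genes, 2 of 11 receptors and relatives and 1 of 16 glycolytic enzymes, where 18.2% of all genes had one. DESeq2 called 5 of these other targets and 2 of the subunits and sensing genes, all lower, where it called 3.93% of all genes, and 1 receptor or relative in each direction. The epithelial falls of Lox, Epas1, Emb and Ramp3 stand beside the lower fibroblast and neutrophil markers in the same sums, whose part in them was not tested.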

How the data were processed

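Raw UMI counts per gene and barcode were deposited by the authors as 1 matrix per library. Per the file headers PISA 0.12 wrote them, and per the submitters' processing notes Seurat 4 was used and GRCh38 (hg38) was named as the build, although 27957 of the 28649 gene names (97.6%) are in the mouse GENCODE M21 annotation. Aligner and annotation: not given in the sources used here. Barcode names are running numbers, so the 4362 to 4968 names per library that recur in another library do not show shared cells. Each pair of libraries differed beyond counting noise (chi-square per degree of freedom 24.4 to 278).

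From 42902 barcodes, 643 with under 500 UMIs, under 300 genes or over 20% mitochondrial UMIs and 825 with a Scrublet score above 0.25 were left out, a limit set after seeing the scores because Scrublet's own marked 1 cell in each of 4 libraries. Clustering used scanpy 1.11.5 and leidenalg 0.10.2 (2000 variable genes without the genes listed here, 30 components, 15 neighbours, resolution 0.5), which gave 15 clusters. A cluster was named for a lineage with at least 3 raised markers and a runner-up at most 0.5 of the best, and 3 unnamed clusters count among all cells only. Counts were summed per library and lineage and tested with edgeR 4.0.16 (R 4.3.3, TMM, quasi-likelihood, filterByExpr, Benjamini-Hochberg over all genes tested, threshold 0.05), which was checked on simulated counts. SE is the log2 fold over the square root of F. Every member was named in every lineage, and of other lists the 4 genes with the smallest p and any past the threshold. The 12 genes most like the members had at least 20 CPM. The members, lists and tests were chosen with earlier results of these data known. DESeq2 1.42.0 and the other alternatives are in the closing section. Intervals and folds cover these libraries only. Same-numbered libraries did not clearly deviate together, and the main fit took the libraries as unpaired. Whether the numbers pair the samples is not known.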

Additional observations from a re-analysis of the deposited data

Results flagged for a closer look

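The change of Slc16a3 between labels was lower in epithelial cells than in monocytes or macrophages, by a log2 difference of -0.78, and that of Ndrg1 was higher there, by 0.62. Both came up because the difference between the lineages passed its own test (edgeR adjusted p = 0.0216 and 0.0313), with each library as a term. Slc16a3 in epithelial cells was lower in 3 of 3 libraries labelled shPgk1 than in any shNC library and overlapped in macrophages. Ndrg1 in epithelial cells was higher in 2 of 3 libraries labelled shPgk1 than in any shNC library, and in macrophages lower in 3 of 3. Within epithelial cluster 0 its log2 fold was 0.07 and within cluster 2 it was 0.63, neither past the threshold, and the shares of these clusters differed between the labels.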

How the results depend on the processing

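Of 1075 refitted folds of the 10 genes under alternative settings, 922 kept their sign and their side of the threshold, 63 no longer passed, 36 newly passed, 53 that passed in neither fit turned sign, and 1 that passed turned sign, Car9 in epithelial cells, at -0.10 within cluster 2. Over single omitted libraries the number of members past the threshold ranged from 0 to 9 in all cells and 0 to 5 in epithelial cells. It ranged from 0 to 6 in monocytes or macrophages and 0 to 4 for the difference between these lineages. With all 6 libraries 16.7%, 8.4%, 0.712% and 2.27% of all genes passed in these fits. The number of all genes past the threshold moved with the omitted library too. In epithelial cells, against 4, the number of members was 2 with the replicate block, 2 with doublets kept and 0 with the barcode gate. It was 2 within cluster 0 and 2 within cluster 2, where 0.852% and 0.447% of all genes passed. In monocytes or macrophages, against 0, it was 5 with DESeq2, 1 with relative log expression (RLE) factors and 4 with no filter on low counts. It was 1 with doublets kept, 1 with at least 2000 UMIs and 1 within cluster 1, where 0.961% of all genes passed. Numbers of all genes passing with doublets kept, at least 2000 UMIs or RLE factors are not given here. The member counts of those fits therefore have no background to be read against. Without the filter it was 2 in T or NK cells and 4 for the difference between lineages. The causes were not tested. Counts over all genes moved more: in epithelial cells 1369 passed, against 2961 with DESeq2, 2682 with no filter, 2213 with library totals, 572 with the replicate block and 35 with the barcode gate. In monocytes or macrophages 111 passed, against 613 with DESeq2, 579 with no filter, 69 with library totals and 38 with the replicate block, and in T or NK cells 12, against 63 with DESeq2 and 360 with no filter. For the difference between lineages 385 passed, against 844 with library totals and 1254 with no filter. The median co-expression ratio in epithelial cells, 2.22, was 2.81 without thinning, 1.78 with the highest 20% and 1.95 within cluster 2, and in monocytes or macrophages it stayed within 1 SD of 2.37. The replicate block gave 6 calls in all cells and 0 in macrophages, and the number of all genes passing in that all-cell fit is not given here. Correlations of same-numbered libraries' deviations were 0.11, 0.059 and -0.039, where all pairs across the groups ran from -0.18 to 0.125. With 3 libraries per group these values cannot settle whether a shared number marks a pair. Library totals in place of TMM and co-expression within clusters were added after seeing the data. Neutrophils of at least 2000 UMIs could not be fitted, as library 1 labelled shPgk1 had too few. Depth limits Adm in epithelial cells (58 to 133 UMIs per library) and Car9 outside them.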
